A study of Mus musculus with 10 samples.

Results

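The hypoxia and glycolysis genes are 36 genes chosen by name: the sensors and transcription factors of the oxygen response, the transporters and enzymes that take glucose to lactate, and further genes that are switched on when oxygen is short. Each gene was read from 1 probe set, the brightest on average of those assigned to its symbol alone, of 18193 genes read in the same way. Probe sets were found for 34 of the 36, while Gpi1 and Eno1 were not analysed here. Of the 4 probe sets of Hif1a, the brightest was used in the main tests and counts, and values of the others are given beside it. The skeletal muscle isoforms Pfkm, Pgam2 and Eno3 were kept apart from the other 31 genes.

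Subcutaneous islet grafts were measured in 6-week-old male Swiss nu/nu mice, an athymic strain that still has innate immune cells, made diabetic with streptozotocin. PSI-F grafts were rat islets in a rat plasma scaffold with cultured skin fibroblasts of nu/nu mice, PSI grafts were the same without fibroblasts, and both were removed on days 1, 3, 7 and 10 after being laid over the abdominal muscle. The references were subcutaneous biopsies of non-transplanted Diabetic mice, given streptozotocin, and of Control mice, which were healthy. There were 10 arrays, 1 per condition, 8 of grafts and 2 of biopsies, so days and graft kinds stood in for replicates in every test, and the p-values measure the spread between such arrays. All probes are of mouse sequence, so rat islet transcripts were seen only as far as they bind. In these mixed tissues fewer cells of a type and less RNA per cell cannot be told apart.

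Cells short of oxygen stop degrading the alpha subunits of hypoxia-inducible factor (HIF), encoded by Hif1a and Epas1, because the prolyl hydroxylases Egln1 and Egln3 need oxygen to mark them. Stabilised HIF switches on glucose transporters, glycolytic enzymes, lactate export and genes for vessel growth, mitophagy and collagen modification. Much of this control acts on the protein and not on the Hif1a transcript. The study describes an islet graft as avascular after isolation, although it counted vessels in the matrix around the islets from day 1 in both kinds of graft.

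Cell type markers placed these samples among muscle and skin. Skeletal muscle markers were bright on every array, with a summed level (log2 of the sum of the linear values of 15 genes) of 15.07 to 15.86 in grafts and 15.31 to 15.88 in biopsies. The summed level of 12 monocyte and macrophage markers was 11.54 to 12.85 in grafts and 9.35 to 9.36 in biopsies, with Cd68, a defining member, at 6.55 to 8.23 in grafts and 4.01 to 4.39 in biopsies. The difference between the 3' and 5' Gapdh control probe sets, a measure of RNA integrity, was -0.01 to 0.29 on the log2 scale over the 10 arrays. For Actb it was larger, at 0.33 to 0.76, with the lowest value on the Diabetic array.

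**Figure D1:**
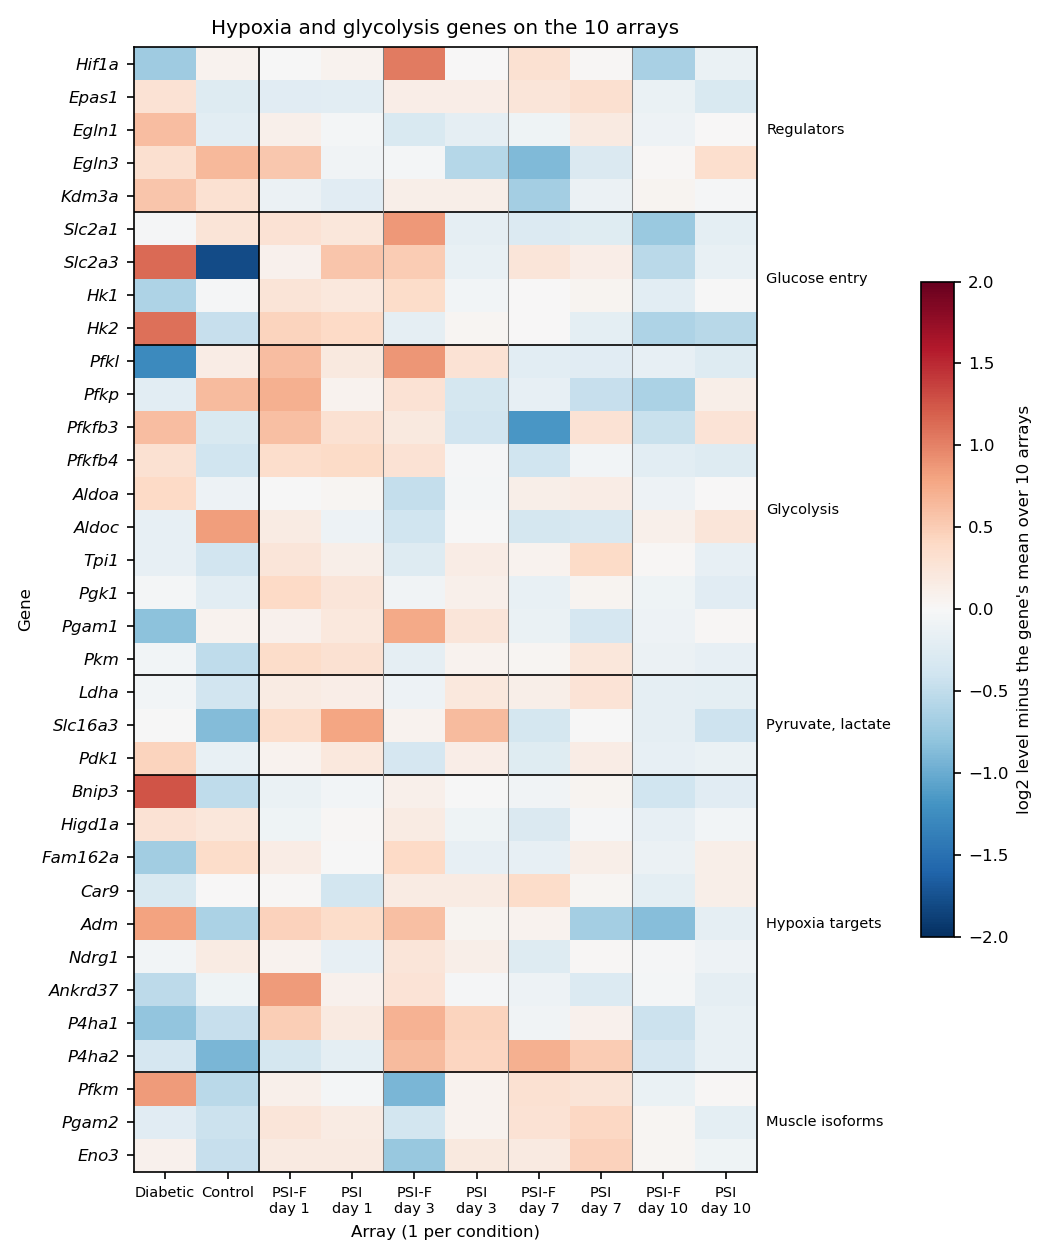
Log2 level of each of the 34 measured genes (rows, grouped by role) on each of the 10 arrays (columns, 1 per condition), shown as the difference from that gene's own mean over the arrays. The Diabetic array had the highest level of 11 genes and the lowest of 7, and the PSI-F array of day 3 the highest of 8 and the lowest of 6.

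Against the biopsies, the early grafts had more P4ha1 transcript, and most of the other genes lay within the range of the biopsies or close to it. P4ha1 encodes a catalytic subunit of the prolyl hydroxylase that modifies collagen in the endoplasmic reticulum, and it is a known HIF target. Its log2 level on days 1, 3, 7 and 10 was 6.41, 6.61, 5.85 and 5.49 in PSI-F grafts and 6.10, 6.36, 6.0 and 5.77 in PSI grafts, against 5.13 in the Diabetic and 5.46 in the Control biopsy. All 8 grafts lay above both biopsies, with the 4 grafts of days 1 and 3 above the 4 later ones. The grafts of days 1 and 3 averaged 6.37 ± 0.21 (SD, n = 4), against 5.29 in the 2 biopsies. That is a log2 difference of 1.07 (SE 0.18, 95% interval 0.65 to 1.5), or 2.11-fold, with an adjusted p of 0.0371 in limma after Benjamini-Hochberg adjustment over all probe sets. P4ha1 was the only one of the 34 genes called (adjusted p under 0.05) as higher in this comparison, where 2.19% of all genes were called higher and 2.87% in either direction, so the count of members is close to the background. The call was lost when any single early graft array or the Diabetic array was left out, with adjusted p between 0.0695 and 0.119. The second P4ha1 probe set differed by 1.13.

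The promoters shown here are from some genes of the list. They are P4ha1, the only called gene, Slc2a1 and Hif1a, which differed between graft kinds on day 3, and Pgam1 with its muscle isoform Pgam2. Each run is the 250 bases before the RefSeq gene start in build GRCm38.p6, read 5′ to 3′ on the strand of the gene. Capitals mark the core of the hypoxia response element, ACGTG or GCGTG, on either strand, and in CACGTG the 2 strands' cores overlap.
P4ha1, chr10:59323046-59323295, plus strand: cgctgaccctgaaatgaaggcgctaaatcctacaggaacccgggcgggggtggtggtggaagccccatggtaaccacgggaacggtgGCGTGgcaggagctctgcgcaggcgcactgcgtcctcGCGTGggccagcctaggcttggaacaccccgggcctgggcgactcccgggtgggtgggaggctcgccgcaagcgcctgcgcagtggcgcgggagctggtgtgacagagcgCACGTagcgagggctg
Slc2a1, chr4:119108495-119108744, plus strand: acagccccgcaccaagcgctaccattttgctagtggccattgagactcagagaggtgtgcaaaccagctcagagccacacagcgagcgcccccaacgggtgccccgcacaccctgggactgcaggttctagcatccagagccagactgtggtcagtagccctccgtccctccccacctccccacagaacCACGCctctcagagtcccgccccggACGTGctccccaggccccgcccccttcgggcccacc
Hif1a, chr12:73907617-73907866, plus strand: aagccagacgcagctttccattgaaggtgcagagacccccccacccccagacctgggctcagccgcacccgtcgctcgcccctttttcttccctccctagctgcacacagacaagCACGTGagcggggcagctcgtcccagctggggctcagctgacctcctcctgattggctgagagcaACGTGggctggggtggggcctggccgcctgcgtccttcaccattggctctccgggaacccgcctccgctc
Pgam1, chr19:41911621-41911870, plus strand: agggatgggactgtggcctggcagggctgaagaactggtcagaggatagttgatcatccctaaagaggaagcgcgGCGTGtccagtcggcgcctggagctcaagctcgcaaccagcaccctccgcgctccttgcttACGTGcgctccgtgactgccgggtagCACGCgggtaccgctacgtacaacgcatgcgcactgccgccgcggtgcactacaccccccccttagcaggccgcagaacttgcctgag
Pgam2, chr11:5803797-5804046, minus strand: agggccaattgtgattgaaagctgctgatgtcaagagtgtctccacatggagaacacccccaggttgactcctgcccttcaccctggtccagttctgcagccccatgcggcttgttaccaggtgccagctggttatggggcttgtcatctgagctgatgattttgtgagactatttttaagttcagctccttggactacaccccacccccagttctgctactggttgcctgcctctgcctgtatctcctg
A core was found 3 times before P4ha1, 2 times before Slc2a1, 3 times before Pgam1 and 3 times before Hif1a, where 1 CACGTG counts on both strands, and Pgam2 had no match in this window. Of the 33 genes of the list with a RefSeq window, 30 held at least 1 core, and Gpi1, Tpi1 and Pgam2 held none. The other muscle isoforms, Pfkm and Eno3, held a core, as did Pfkl and Slc16a3, which are not shown. Over all 27025 genes with a window the share was 41.5%, genes with several starts being counted once if any window matched, and over all 32851 windows it was 38.6%. Many of these genes were listed because they are known HIF targets, and a match of 5 letters is a description of the sequence and not a binding site.

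P4ha2, the sister subunit of P4ha1, was also above the Control biopsy in every graft, at 5.66, 6.63, 6.72 and 5.66 in PSI-F and 5.80, 6.43, 6.52 and 5.86 in PSI grafts on days 1, 3, 7 and 10, against 5.67 in the Diabetic and 5.08 in the Control biopsy. On days 1 and 10 its levels were close to that of the Diabetic biopsy, and the difference between all 8 grafts and the 2 biopsies was 0.78 (SE 0.31, adjusted p = 0.217). The further collagen-modifying HIF targets Plod1 and Plod2, which hydroxylate lysine, passed the test in 1 comparison each. Plod1 was at 5.73, 6.56, 6.23 and 5.83 in PSI-F and 5.68, 6.12, 6.29 and 5.88 in PSI grafts on days 1, 3, 7 and 10, against 4.98 in the Diabetic and 4.78 in the Control biopsy, so that all 8 grafts lay above both. It was higher in the 8 grafts than in the biopsies by 1.16 (SE 0.21, adjusted p = 0.0239), and by 0.67 with the mean of its probe sets (adjusted p = 0.0731). Plod2 was higher in the grafts of days 1 and 3 by 1.64 (SE 0.26, adjusted p = 0.0314), a call lost without any 1 early graft array or the Diabetic array, with adjusted p between 0.0543 and 0.0854. Plod2 was at 5.07, 5.72, 5.0 and 4.11 in PSI-F and 5.04, 5.79, 5.59 and 4.11 in PSI grafts, against 3.64 in the Diabetic and 3.88 in the Control biopsy. The summed level of 8 fibroblast and matrix markers, collagens included, was 12.81 to 13.97 in grafts of days 1 and 3 and 12.21 to 12.56 in biopsies, and its part in these differences was not tested.

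Over the whole list, the 8 grafts and the 2 biopsies were close. The median log2 difference of the 34 genes was 0.10, against -0.02 over all genes, with 18 genes higher and 16 lower. None was called by limma, where 2.85% of all genes were, and 6 had an unadjusted p under 0.05, a share of 17.6% against 20.8% of all genes. These were Hk1, Pgam2, P4ha1 and P4ha2, which were higher, and Higd1a and Kdm3a, which were lower. P4ha1, Higd1a and Kdm3a were the only genes of the list with all 8 grafts on 1 side of both biopsies, a pattern seen at 15.5% of all genes. Higd1a, a mitochondrial protein induced by hypoxia, had a difference of -0.32 (SE 0.12, adjusted p = 0.183), and Kdm3a, an oxygen-dependent histone demethylase, of -0.53 (SE 0.19, adjusted p = 0.166). At the dimmer Higd1a probe sets the grafts lay on both sides of the biopsies. With the mean of its probe sets the Higd1a difference was -0.16 (adjusted p = 0.555 in limma).

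Split by time, the median difference of the list from the biopsies was 0.22 on days 1 and 3 and 0.02 on days 7 and 10, against -0.03 and -0.00409 over all genes. On days 1 and 3, 6 genes had an unadjusted p under 0.05, at a background of 19.9% of all genes. Pfkl, Pgam1, Hk1 and Slc16a3 were the higher ones beside P4ha1, and Kdm3a was the lower one. On days 7 and 10 no gene of the list was called by limma, where 0.462% of all genes were, and 5 had an unadjusted p under 0.05, at a background of 16.5%.

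No gene of the list stood 2-fold clear of both biopsies in both grafts of any day. The background for this pattern was 3.97% of all genes on day 1, 3.24% on day 3, 4.55% on day 7 and 1.47% on day 10. P4ha1 came nearest, on day 3, when its lower graft was 0.90 above the higher biopsy.

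The 2 biopsies disagreed on several of these genes. A total of 8 genes, 23.5% of the list against 11.0% of all genes, differed by 2-fold or more between the Diabetic and the Control array, a comparison of 2 arrays added after the values were seen. Slc2a3, a high-affinity glucose transporter, was at 5.75 in the Diabetic and 2.82 in the Control biopsy, and the grafts lay between them at 4.07 to 5.18. Bnip3, a mitophagy receptor, was at 9.78 in the Diabetic and 8.02 in the Control biopsy, with grafts at 8.13 to 8.62. Hk2, the hexokinase of muscle and of hypoxic cells, was at 9.61 and 8.04 in the Diabetic and the Control biopsy, with grafts at 7.89 to 8.94. Pfkm and Adm were also higher in the Diabetic biopsy by 2-fold or more, by 1.39 and 1.44 on the log2 scale. Pfkl, Aldoc and Fam162a were the 3 that were lower there, and Pfkl, the liver-type phosphofructokinase found in most tissues, differed most of them, at 5.22 in the Diabetic and 6.64 in the Control biopsy. All 15 skeletal muscle markers were brighter in the Diabetic than in the Control biopsy, by a median of 0.64. Of 4 erythroid markers 3 were brighter there, with a median difference of 1.05. Of 8 epidermis markers 2 were brighter, with a median difference of -0.91, and of 7 cell cycle markers 0 were, with a median of -0.82. The part of these markers in the differences was not tested. Against the Diabetic array alone, limma called 5 genes in the grafts of days 1 and 3: Hk1, Pfkl, Pgam1 and P4ha1 as higher and Bnip3 as lower, at a background of 12.5% of all genes. Against the Control array alone it called 1, Slc2a3, as higher by 2.05 (adjusted p = 0.0291), at a background of 3.15%. The lone biopsy was there assumed to vary like the grafts.

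Within the grafts, no gene of the list passed the adjusted test between days 7 and 10 and days 1 and 3, while 7 of the 34 had their later values wholly below their earlier ones. Limma called 0.374% of all genes in this comparison and none of the 34. A total of 9 of the 34, or 26.5%, had an unadjusted p under 0.05, against 16.8% of all genes, and all 9 were lower on days 7 and 10. The 7 genes with all 4 later grafts below all 4 earlier ones were Slc2a1, Pfkl, Pfkfb4, Pgam1, Slc16a3, Ankrd37 and P4ha1. In all of them but Pfkl the groups parted only narrowly. For Slc2a1 the lowest earlier value was 7.30 and the highest later one 7.28, and for Pfkl these were 6.69 and 6.34. The 7 genes were 20.6% of the list, against 6.53% of all genes and 9.87% of genes with a mean level of 4 or more, a threshold that 32 genes of the list met. Ankrd37 fell short of that level, which left 6 of the 32, or 18.8%. None lay wholly above, a pattern seen in 4.12% of all genes. The median difference was -0.16 over the 34 genes and 0.01 over all genes, and 24 of the 34 were lower.

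Slc2a1, the widely expressed basal glucose transporter, was the only one of the 7 that acts in glucose entry. Its level on days 1, 3, 7 and 10 was 7.77, 8.34, 7.20 and 6.73 in PSI-F grafts and 7.71, 7.30, 7.23 and 7.28 in PSI grafts, against 7.46 in the Diabetic and 7.74 in the Control biopsy. The later grafts thus lay below both biopsies, while the earlier ones lay on both sides of them. Slc2a1 averaged 7.11 ± 0.25 on days 7 and 10 and 7.78 ± 0.43 on days 1 and 3 (SD, n = 4 each), a difference of -0.67 (SE 0.22, adjusted p = 0.21). All 3 Slc2a1 probe sets had the later grafts wholly below the earlier ones. Hk2, which traps glucose in the cell, was at 8.94, 8.32, 8.52 and 7.89 in PSI-F and 8.91, 8.54, 8.30 and 7.95 in PSI grafts, and its later and earlier values overlapped on the arrays of days 3 and 7. Hk1, the housekeeping hexokinase, ranged over 6.05 to 7.04 on the 10 arrays.

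Among the glycolytic enzymes, Pfkl, Pfkfb4 and Pgam1 had all later grafts below all earlier ones. Pfkl was at 7.12, 7.37, 6.28 and 6.34 in PSI-F and 6.69, 6.79, 6.27 and 6.24 in PSI grafts on days 1, 3, 7 and 10. Its 4 later values lay within 6.24 to 6.34, and the difference of -0.71 (SE 0.12, adjusted p = 0.0599) had the smallest adjusted p of the list. Of its 3 probe sets, 2 had no overlap between later and earlier grafts, and the dimmest one differed by -0.11. Pfkfb4, which makes the activator of phosphofructokinase, was at 6.49, 6.43, 5.73 and 5.92 in PSI-F and 6.52, 6.12, 6.08 and 5.88 in PSI grafts, a difference of -0.49 (SE 0.13, adjusted p = 0.134). Pgam1, the non-muscle phosphoglycerate mutase, was at 8.13, 8.79, 7.91 and 7.94 in PSI-F and 8.25, 8.28, 7.70 and 8.07 in PSI grafts, a difference of -0.46 (SE 0.16, adjusted p = 0.225). Of the bright enzymes of the pathway's trunk, whose later and earlier values overlapped, Aldoa ranged over 11.64 to 12.52 on the 10 arrays, Tpi1 over 10.33 to 11.08, Pgk1 over 10.20 to 10.81 and Pkm over 10.03 to 10.90. Pfkp, the platelet-type phosphofructokinase, ranged over 5.84 to 7.19 and Aldoc, the brain-type aldolase, over 4.53 to 5.76.

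Slc16a3, the lactate exporter of glycolytic cells, was at 5.75, 5.47, 5.05 and 5.22 in PSI-F and 6.20, 6.03, 5.39 and 4.99 in PSI grafts on days 1, 3, 7 and 10, against 5.40 in the Diabetic and 4.54 in the Control biopsy. Every early graft lay above both biopsies and every late one between them. Slc16a3 averaged 5.16 ± 0.18 on days 7 and 10 and 5.86 ± 0.32 on days 1 and 3 (SD, n = 4 each), a difference of -0.70 (SE 0.15, adjusted p = 0.0856). Ldha, which reduces pyruvate to lactate, stayed at 10.50 to 11.16 over all 10 arrays. Pdk1, the kinase that keeps pyruvate out of the mitochondria, lay at 6.06 to 6.85 by its brightest probe set, while its second ran over 4.10 to 6.02, and on day 3 the first was lower in PSI-F than in PSI, at -0.47, and the second higher, by 1.08. Slc16a1 and Slc16a7, related transporters from the list of further enzymes, had differences of -0.79 and 0.28 between later and earlier grafts. The median difference of the 18 measured genes of that list was 0.13.

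Among the classical hypoxia targets, P4ha1 had a difference of -0.59 between days 7 and 10 and days 1 and 3 (SE 0.15, adjusted p = 0.126), without overlap in either of its 2 probe sets. Adm, the vasodilator adrenomedullin, was at 5.57, 5.71, 5.17 and 4.25 in PSI-F and 5.48, 5.17, 4.43 and 4.93 in PSI grafts, with a difference of -0.78 (SE 0.21, adjusted p = 0.142). Its PSI-F value on day 7 met the PSI value on day 3, so the groups overlapped narrowly there, while its second probe set had no overlap. Ankrd37, a small ankyrin protein induced by HIF, was dim throughout at 2.50 to 3.88, close to the arrays' medians of 2.82 to 2.94. Car9, the tumour-associated carbonic anhydrase used as a hypoxia marker, was likewise dim, at 2.82 to 3.56. P4ha2 spanned 5.66 to 6.72 in the grafts. Ranges in the grafts were narrower for 4 targets: Bnip3 lay within 8.13 to 8.62, Ndrg1, a stress-induced gene, within 6.97 to 7.47, Fam162a, a mitochondrial protein induced by hypoxia, within 8.23 to 8.79, and Higd1a within 8.17 to 8.63.

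The summed level of 9 neutrophil markers, to which bright genes add most, was 8.44 to 9.24 on days 7 and 10. It was 10.20 to 11.82 on days 1 and 3 and 8.48 to 9.21 in the biopsies. Only 3 of the 9 markers had all later grafts below all earlier ones. Their median level overlapped, at 4.73 to 5.22 on days 7 and 10 and 4.95 to 7.13 on days 1 and 3. The summed level of the macrophage markers was 11.54 to 12.38 on days 7 and 10 and 11.68 to 12.85 on days 1 and 3. In addition, 12 of 27 poly-A control probe sets, which read RNA added in the laboratory, were brighter on all 4 arrays of days 7 and 10 than on every other array, by means of 0.75 to 2.55 on the log2 scale. The summed fibroblast and matrix level was 13.99 to 14.45 on days 7 and 10 and 12.81 to 13.97 on days 1 and 3, so the groups parted only narrowly. Of its 8 markers, 2 had all later grafts above all earlier ones. The summed level of the hair follicle markers was 10.62 to 13.73 on days 7 and 10 and 7.28 to 12.95 on days 1 and 3. The brighter controls and the day of the graft cannot be told apart, and the part of these markers in the differences was not tested.

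**Figure D2:**
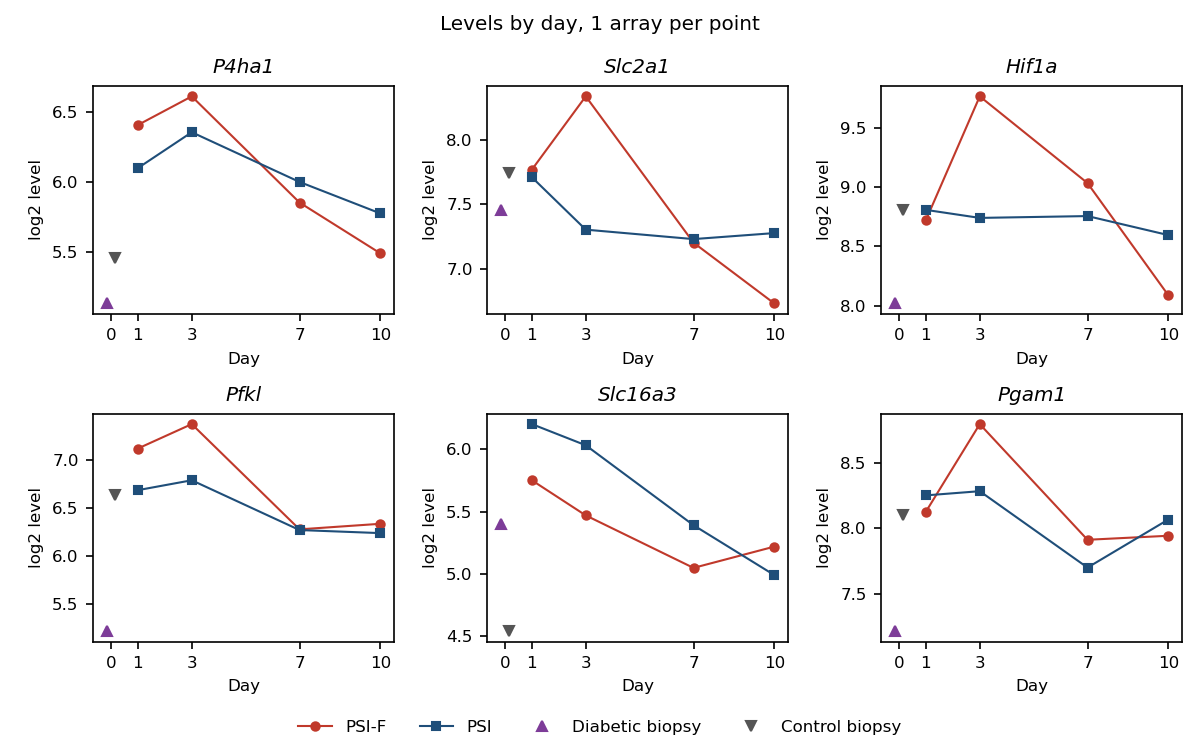
Log2 level (y axis, a different range in each panel) of 6 genes by day (x axis) in PSI-F grafts, PSI grafts and the 2 biopsies, which are drawn at day 0; each point is 1 array. P4ha1 lay above both biopsies in all 8 grafts, and in P4ha1, Slc2a1, Pfkl, Slc16a3 and Pgam1 all grafts of days 7 and 10 lay below all of days 1 and 3, whereas Hif1a had a single high value of 9.77 in the PSI-F graft of day 3.

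**Figure D3:**
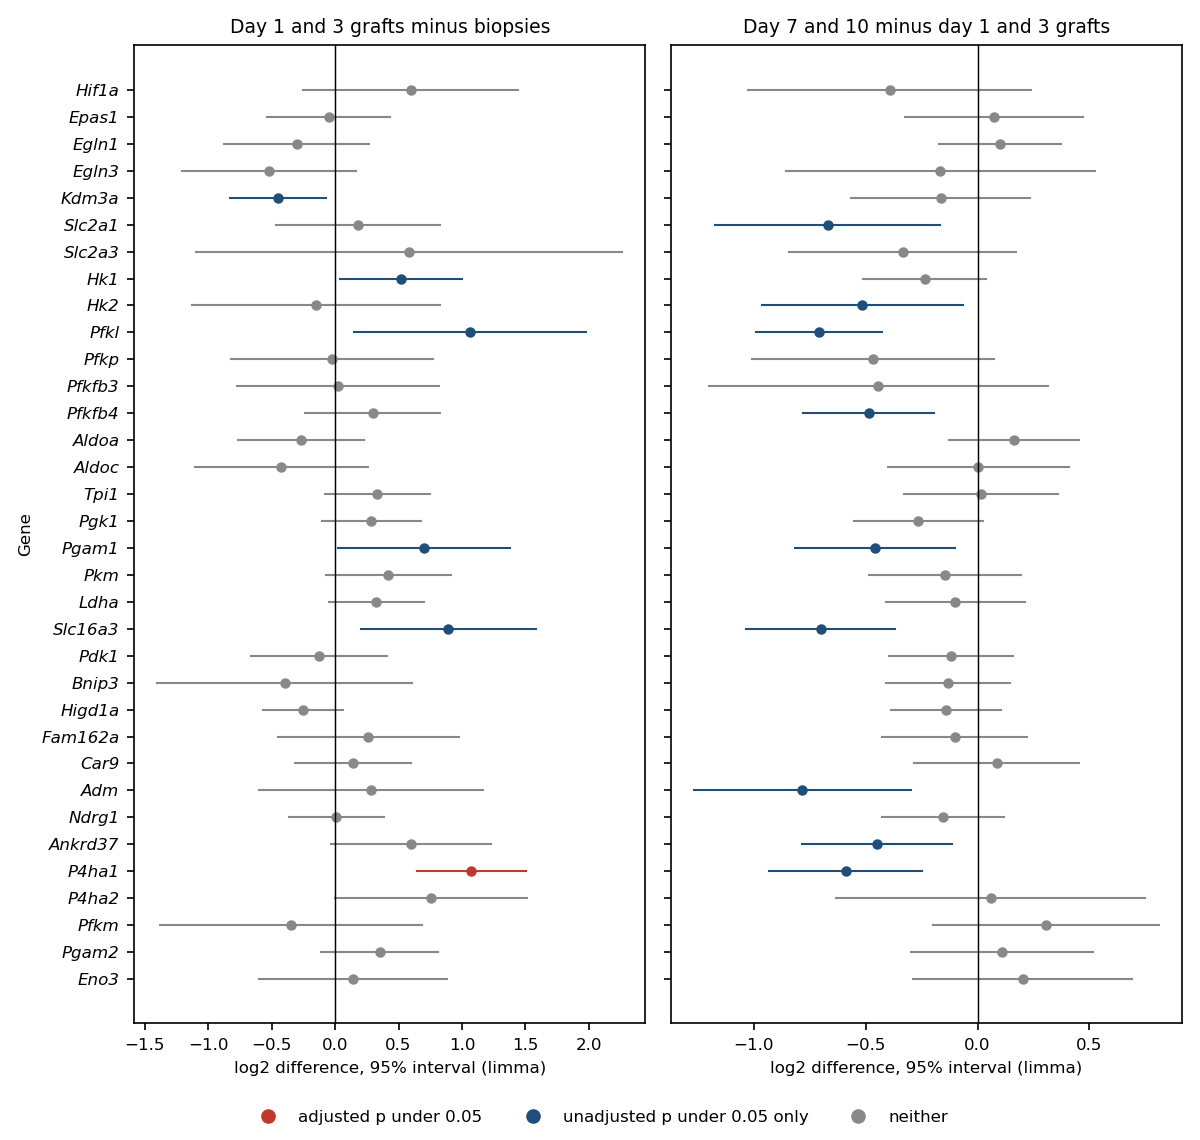
Log2 difference with its 95% interval from limma (x axis) for each of the 34 genes (y axis) between day 1 and 3 grafts and biopsies (left) and between day 7 and 10 and day 1 and 3 grafts (right). Only P4ha1 on the left had an adjusted p under 0.05, and all 9 genes on the right with an unadjusted p under 0.05 lie to the left of 0.

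No regulator had its later grafts wholly apart from its earlier ones. Epas1, the HIF alpha subunit prominent in endothelium, ranged over 7.85 to 8.47 on the 10 arrays, Egln1, the main oxygen sensor, over 7.10 to 8.01 and Kdm3a over 6.03 to 7.26. Egln3, the inducible relative of Egln1, ranged over 6.43 to 7.96. PSI-F minus PSI was 0.60, 0.53, -0.60 and -0.32 for Egln3 on days 1, 3, 7 and 10, with the same signs at its second probe set. On days 3 and 7 both grafts lay below both biopsies at both Egln3 probe sets. Hif1a was at 8.72, 9.77, 9.04 and 8.09 in PSI-F grafts and 8.81, 8.74, 8.76 and 8.60 in PSI grafts on days 1, 3, 7 and 10, against 8.02 in the Diabetic and 8.81 in the Control biopsy. Apart from the PSI-F graft of day 3, the grafts lay near or between the biopsies, and the difference of days 7 and 10 from days 1 and 3 was -0.39 (95% interval -1.02 to 0.24). At the other Hif1a probe sets this difference was -0.37, -0.82 and, at the dimmest, -0.01. Of the other HIF pathway regulators, 12 of 14 listed genes were measured, and Crebbp, a HIF coactivator, was called in 1 comparison, as lower in the 8 grafts than in the biopsies, where 0.693% of all genes were called lower. Crebbp was at 6.65, 6.91, 6.70 and 6.89 in PSI-F and 6.96, 6.98, 6.74 and 6.98 in PSI grafts on days 1, 3, 7 and 10, against 7.84 in the Diabetic and 7.24 in the Control biopsy, with a difference of -0.69 (SE 0.16, adjusted p = 0.0493). Without the Diabetic array the Crebbp difference was -0.39 (adjusted p = 0.371).

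Between PSI-F and PSI no gene of the list passed the test over the 4 days. Limma, with day as a block, called 0% of all genes between PSI-F and PSI and none of the 34, and 1 gene of the list, Ankrd37, had an unadjusted p under 0.05, at a background of 6.28%. Ankrd37 was higher in PSI-F by 0.34 (SE 0.13, adjusted p = 0.751), in 4 of 4 days, at levels near the array median. The 95% interval of the difference was -0.34 to 0.69 for Hif1a, -0.39 to 0.65 for Slc2a1 and -0.27 to 0.33 for P4ha1, and differences of up to these sizes lie within the intervals. Set against each other, the changes over time in PSI-F and in PSI differed at an unadjusted p under 0.05 in 2 genes of the list, Fam162a and Pfkfb3, against 1.37% of all genes, and limma called 0% of all genes after adjustment.

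Day by day, with 1 array of each kind and therefore no test, the kinds of graft parted most on day 3. On that day Hif1a and Slc2a1 were at least 2-fold higher in the PSI-F graft, where 2.86% of all genes were 2-fold apart. Hif1a was at 9.77 in PSI-F and 8.74 in PSI, and Slc2a1 at 8.34 in PSI-F and 7.30 in PSI. Each was the highest value of its gene on the 10 arrays. The other Hif1a probe sets read 7.15 in PSI-F and 5.94 in PSI, 5.37 in PSI-F and 4.21 in PSI, and, at the dim one, 1.58 in PSI-F and 1.45 in PSI. The 2 other Slc2a1 probe sets were higher in PSI-F by 0.98 and 0.94. Further genes were higher in PSI-F on that day by less than 2-fold, among them Slc2a3 by 0.66, Pfkp by 0.64, Pfkfb3 by 0.58, Pfkl by 0.58 and Pgam1 by 0.51. Of the 31 genes that are not muscle isoforms, 20 were higher and 10 lower in PSI-F on day 3. The lower ones included Slc16a3 at -0.56, Pdk1 at -0.47, Aldoa at -0.44, Tpi1 at -0.40, Aldoc at -0.38 and Ldha at -0.30, so glycolysis genes lay on both sides.

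All 3 muscle isoforms were lower in PSI-F on day 3. Pfkm, the muscle phosphofructokinase, was at 9.59 in PSI-F and 10.57 in PSI, Eno3, the muscle enolase, at 10.82 in PSI-F and 11.76 in PSI, and Pgam2 at 10.10 in PSI-F and 10.54 in PSI. For Pfkm and Eno3 the PSI-F graft of day 3 was the lowest of the 10 arrays. On days 1, 7 and 10 the differences of these 3 genes lay within -0.28 to 0.22. Skeletal muscle markers moved with them: 14 of 15 were lower in the PSI-F graft of day 3, with a median difference of -0.52. All 9 neutrophil markers were higher in PSI-F on that day, by a median of 2.26, and 9 of 12 macrophage markers were higher, by a median of 0.36. The widest marker gap was in skin appendages: all 12 hair follicle markers were lower in the PSI-F graft of day 3, with a median difference of -5.64, with a summed level of 7.28 in PSI-F and 12.95 in PSI, against 13.31 to 13.86 in the biopsies. All 8 epidermis markers were higher in PSI-F on that day, by a median of 0.47, and all 6 adipocyte markers were lower, with a median difference of -0.75. The 2 grafts of day 3 thus differed in several tissue components at once, and the part of these cells in the differences was not tested.

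On the other days the kinds of graft were closer. On day 1 no gene of the list was 2-fold apart, at a background of 1.13%, and 31 of 34 lay within 0.5 of each other. On day 7 only Pfkfb3, the inducible enzyme that makes the activator of phosphofructokinase, was 2-fold apart, with a background of 1.78%. Over days 1, 3, 7 and 10 it was at 6.22, 5.81, 4.46 and 5.17 in PSI-F and 5.93, 5.23, 5.91 and 5.89 in PSI grafts, against 6.24 in the Diabetic and 5.31 in the Control biopsy, and the PSI-F value of day 7 was the lowest of the 10. Its second, dim probe set was higher in PSI-F on day 7, by 0.47. On day 10 none was 2-fold apart, at a background of 0.731%. Slc2a1 was then lower in PSI-F, at 6.73, against 7.28 in PSI, and Hif1a likewise, at 8.09, against 8.60 in PSI.

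**Figure D4:**
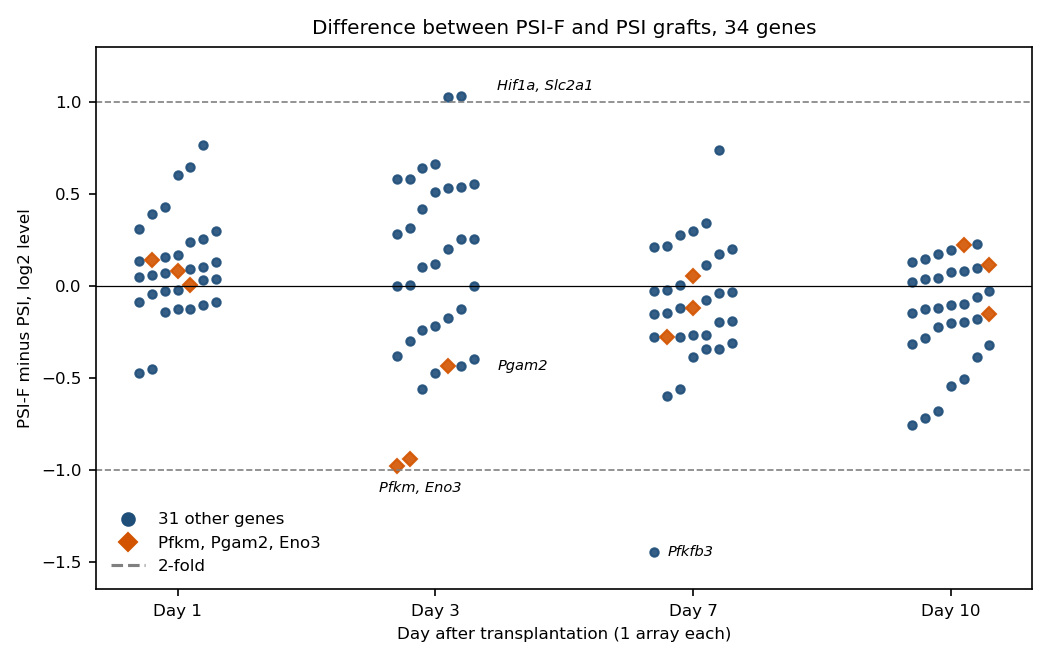
Log2 level in the PSI-F graft minus that in the PSI graft (y axis) for each of the 34 genes on each day (x axis), with 1 array of each kind per day; dashed lines mark 2-fold and the sideways spread of points only separates them. On day 3 Hif1a and Slc2a1 lie above the upper line at 1.03 and 1.03 while the muscle isoforms lie below 0, and on day 7 Pfkfb3 lies at -1.45.

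The rest of the pathway was read from 3 further lists. Of 37 further HIF targets 33 were measured, and 2 were called as higher in the 8 grafts than in the biopsies, Plod1 and Cxcr4, where 2.16% of all genes were. On days 1 and 3 the called ones were Plod2 and Cxcr4, both higher, at a background of 2.19%. Cxcr4, a chemokine receptor carried by leukocytes and endothelium, was at 4.98, 6.66, 5.12 and 4.55 in PSI-F and 5.31, 5.77, 5.45 and 4.41 in PSI grafts on days 1, 3, 7 and 10, against 2.58 in the Diabetic and 2.94 in the Control biopsy, a difference of 2.52 over all grafts (SE 0.46, adjusted p = 0.0224). The median of the 33 targets was -0.03 in that comparison, against -0.02 over all genes. Vegfa, the main vessel growth factor under HIF, was not called, and lay at 5.67 to 6.31 in the grafts, against 5.76 in the Diabetic and 5.69 in the Control biopsy.

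Of 23 further enzymes of glycolysis and pyruvate use 18 were measured and 1, Eno2, was called, as higher in the 8 grafts and in those of days 1 and 3, with the same backgrounds. Eno2, the enolase typical of neurons and endocrine cells, was at 4.47, 4.93, 4.06 and 3.99 in PSI-F and 4.61, 4.34, 4.83 and 4.15 in PSI grafts, against 2.68 in the Diabetic and 3.13 in the Control biopsy. All 8 grafts lay above both biopsies, by 1.52 on average (SE 0.25, adjusted p = 0.0149). The summed level of 6 islet endocrine markers was also higher in every graft, at 7.93 to 10.68, against 4.99 to 5.38 in biopsies. Of these 6 markers, 3 had all grafts above both biopsies. In the PSI-F graft of day 3, where Eno2 was highest, the sum was 8.81, most of it from Ins2 at 8.67. The part of islet cells in the Eno2 difference was not tested. Without the Diabetic array Plod1, Cxcr4 and Eno2 kept their direction over all grafts, at 1.26, 2.34 and 1.29, and lost the call. None of the 3 lists held a called gene between later and earlier grafts or between PSI-F and PSI. Between later and earlier grafts an unadjusted p under 0.05 was found for 5 of the 18 further enzymes, 8 of the 33 HIF targets and 0 of the 12 regulators, at a background of 16.8% of all genes. Between PSI-F and PSI these counts were 3, 2 and 1, at a background of 6.28%.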

How the data were processed

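Per the labels, RNA of 10 samples was hybridised to Affymetrix Mouse Genome 430 2.0 arrays. The deposited values are log2 levels made by the authors with RMA, which corrects background, quantile-normalises and summarises probes, with R 2.15.0 and affy 1.36.0 listed in the submitters' processing notes. The table held 45101 probe sets, of which 64 were controls and 45037 were tested. The platform annotation gave 1 symbol to 34945 of these, several to 932 and none to 9160, and a gene was read from its single-symbol probe set with the highest mean. RNA of the best quality was chosen for hybridisation by the study, and the sources do not say whether 1 mouse or a pool was used per array. Files hold no read depth, and the number of arrays limits the precision.

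Comparisons over several arrays used limma 3.58.1 in R 4.3.3 (lmFit and eBayes, Benjamini-Hochberg over all 45037 probe sets, calls at adjusted p under 0.05). Graft kind was a covariate between later and earlier grafts and day a block between PSI-F and PSI. Single arrays were compared at 2-fold, a log2 difference of 1, with no test. The tests were checked on simulated data with 100 probe sets changed by each size: in the comparison of all grafts with biopsies 60 of 100 changes of 2-fold and 94 of 100 of 4-fold were recovered, and 34 and 76 for grafts of days 1 and 3 against biopsies, 25 and 69 for grafts of days 7 and 10, 72 and 96 between later and earlier grafts, and 54 and 90 between PSI-F and PSI. The simulated noise was independent between arrays and probe sets, and each change was equal on every changed array. The real arrays differ in day and in tissue markers, so these counts do not give the power in the real data. Values were given on every array for genes that were called with all arrays in the test, or 2-fold apart on a day; those added because groups did not overlap, and the comparison of Diabetic with Control, were chosen after values had been seen. The members and the further lists were chosen with earlier results of these data known. Alternatives were cyclic loess, a mean level of 4 or more, an intensity trend, a robust prior, the mean of all probe sets, a 4-fold threshold, other baselines and leaving out each array. Promoters came from RefSeq (GRCm38.p6), with a window for 33 of the 36 genes. Python 3.11.15 with pandas 2.3.3, numpy 2.4.6 and matplotlib 3.10.9 was used for the rest.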

Additional observations from a re-analysis of the deposited data

Results flagged for a closer look

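At its brighter probe set Fam162a moved in opposite directions over time in the 2 kinds of graft. Its second probe set, dim at 1.42 to 2.06 in the grafts, had overlapping later and earlier values in both kinds. At the brighter one, PSI-F grafts were at 8.55 and 8.79 on days 1 and 3 and at 8.24 and 8.28 on days 7 and 10. PSI grafts were at 8.38 and 8.23 and then at 8.51 and 8.51. The change over time in PSI-F minus that in PSI was -0.61 (SE 0.21), with an unadjusted p of 0.0206 and an adjusted p of 1 in limma, fitted on 4 groups of 2 arrays in a test added after the data were seen. This fit called 0 of 45037 probe sets, and 2 of the 34 genes had an unadjusted p under 0.05, against 1.37% of all genes. The other was Pfkfb3, with a larger difference of -1.52 (SE 0.43, unadjusted p = 0.00897 and adjusted p = 1 in limma).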

How the results depend on the processing

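Leaving out 1 array at a time, the number of called genes of the list ranged over 0 to 3 for all grafts against biopsies (0 with all arrays), 0 to 5 for grafts of days 1 and 3 (1 with all arrays) and 0 to 3 for grafts of days 7 and 10 (0 with all arrays), and it was 0 throughout between later and earlier grafts and between PSI-F and PSI. The 3, 5 and 3 all came from leaving out the Control array, and P4ha1 on days 1 and 3 was lost without either early PSI-F array, either early PSI array or the Diabetic array. Without the Control array Bnip3, Egln1 and Fam162a were called over all grafts, with differences of -1.34, -0.66 and 0.74, and without the Diabetic array the differences were 0.42, 0.16 and -0.32. On days 1 and 3 Bnip3 was at -1.28 without the Control and 0.49 without the Diabetic array, and Slc2a3 at -0.88 and 2.05. On days 7 and 10 Hk2, Pfkl and Bnip3 were at -1.45, 1.06 and -1.41 without the Control array and at 0.12, -0.35 and 0.35 without the Diabetic array. At 4-fold, 0 genes were apart between PSI-F and PSI on day 3 and 0 on day 7, and averaging all probe sets of a gene also gave 0 and 0, Hif1a and Slc2a1 then differing by 0.88 and 0.98 on day 3. With that mean 1 gene, P4ha1, stood 2-fold clear of both biopsies on day 3. Of all these counts, 91 were within 1.5 times the main ones and 12 were not, those without the Control array included. Among called genes of the further lists, Crebbp also lost its call with cyclic loess, with an intensity trend, with the mean of all probe sets and without any 1 graft array, Plod1 with the mean of all probe sets, and on days 1 and 3 Plod2 without any 1 early graft array or the Diabetic array, Cxcr4 without the same arrays other than PSI-F of day 3, and Eno2 without either array of day 1; the cause was not tested. Without the PSI-F array of day 3, 9 genes of the list had later grafts wholly below earlier ones, at a background of 8.57% of all genes. The labels number no replicates, and PSI-F and PSI arrays were paired by day, as a block in that comparison; without the day block the count stayed at 0. Ankrd37 and Car9 are limited by signals near the array medians.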
